A study of Homo sapiens with 12 samples.

Results

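The 10 genes that encode endophilins and the proteins that work with them in endocytosis were followed in pancreatic cancer cells after knockdown of focal adhesion kinase (FAK), the product of PTK2. They were chosen by name, as every probe of the array assigned to SH3GL1, SH3GLB1, SH3GLB2, SH3KBP1, DNM1, DNM2, AMPH, BIN1, SYNJ1 or SYNJ2, which gave 10 of 34599 gene names and 17 of 47228 probes. SH3GL1 was selected because earlier results of the same arrays had shown it higher in MIA PaCa-2 with both FAK hairpins, so its values against the control hairpin are given here as a description, with no test. The other 9 genes are its partners and relatives, and they too were named with earlier results of these arrays known.

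RNA of MIA PaCa-2 and Capan-1, established lines from human pancreatic adenocarcinomas, was hybridised to Illumina HumanHT-12 v4 arrays, which carry 1 or more bead probes per gene. Each line carried, in a doxycycline-inducible Tet-pLKO backbone, the control hairpin shCtrl, the FAK hairpin sh1209 or the FAK hairpin sh1319, which the Capan-1 labels write as shFAK1319. All 6 groups, controls included, received 50 ng/ml doxycycline for 96 hours under puromycin, at 3.5 ug/ml (MIA PaCa-2) or 1.5 ug/ml (Capan-1). The RNA input was 500 ng. Each group had 2 arrays, 12 in all on 1 chip, and since no label says that the 2 came from separate cultures, p-values measure only the spread between these arrays, which may be technical. The comparisons addressed which genes changed with the loss of FAK.

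Levels are normalized log2 intensities, and differences are on the same log2 scale, where an offset added in the background correction understates the change of dim probes. A probe was called changed at an adjusted p under 0.05 (limma, Benjamini-Hochberg over all 24207 tested probes), and tested probes were those detected at p under 0.05 in at least 2 arrays. Between 16259 and 19814 probes were detected on an array. PTK2 probe 450253 was at 21.1% (sh1209) and 17.9% (sh1319) of its shCtrl level in MIA PaCa-2, while Capan-1 kept 65.4% and 29.2%, so that the weakest knockdown was that of sh1209 in Capan-1. The dim PTK2 probe 2680750 did not pass the test with either hairpin in either line. Of the epithelial markers, KRT8 and KRT18 were detected in 6 of 6 arrays of each line, and KRT19, EPCAM and CDH1 in 6 of 6 Capan-1 arrays but in 4, 2 and 0 of 6 MIA PaCa-2 arrays. Of the mesenchymal markers, CDH2 was detected in 6 of 6 Capan-1 and 0 of 6 MIA PaCa-2 arrays, ZEB1 in 0 of 12, 1 VIM probe in 12 of 12, and the other VIM probe in the 6 MIA PaCa-2 arrays only. FN1 probe 6180528 was detected in 2 MIA PaCa-2 arrays, and the other FN1 probes were not detected. Of the other cells a culture could hold, the fibroblast genes PDGFRB and THY1 were detected on 0 of 12 arrays. COL1A2 was detected in 6 of 6 MIA PaCa-2 arrays, and its probe 4040671 also in 2 Capan-1 arrays. COL1A1 was detected on 1 MIA PaCa-2 array and LUM probe 2490364 on 2 Capan-1 arrays. Of the leukocyte genes, CD14 probe 6370369 was detected on 5 of 6 MIA PaCa-2 arrays and 1 Capan-1 array. PTPRC probe 870095 and CD3E were each detected on 1 MIA PaCa-2 array. The other probes of LUM, CD14 and PTPRC were not detected. In cultures measured in bulk, fewer cells of a type and less RNA per cell cannot be told apart.

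Clathrin-mediated endocytosis draws a patch of plasma membrane inward, pinches it off and strips the coat from the vesicle. Endophilins and amphiphysins carry a curved BAR domain that binds the narrowing neck and an SH3 domain that recruits dynamin, the GTPase that cuts the neck, and synaptojanin, the lipid phosphatase that helps shed the coat. FAK lies at integrin adhesions, whose receptors are themselves taken up by endocytosis, and phosphorylation of endophilin-A2, the product of SH3GL1, by SRC in a complex with FAK has been described.

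The promoter windows of SH3GL1, which leads the set, and of BIN1, whose level depended on the hairpin in Capan-1, are shown because each gene has a single start in the RefSeq table of GRCh38.p14. Each window runs from 250 bases before the start to 50 bases after it, 5′ to 3′ on the gene's strand. Capitals mark the GC box GGGCGG and the E-box CACGTG on either strand.
SH3GL1, chr19:4400498-4400797, minus strand: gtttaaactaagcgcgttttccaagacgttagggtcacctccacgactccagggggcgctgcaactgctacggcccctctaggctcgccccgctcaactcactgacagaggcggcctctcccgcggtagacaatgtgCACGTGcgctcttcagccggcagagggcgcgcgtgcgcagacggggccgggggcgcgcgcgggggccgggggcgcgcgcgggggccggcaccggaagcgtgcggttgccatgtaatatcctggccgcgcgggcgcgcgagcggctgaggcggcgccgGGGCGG
BIN1, chr2:127107105-127107404, minus strand: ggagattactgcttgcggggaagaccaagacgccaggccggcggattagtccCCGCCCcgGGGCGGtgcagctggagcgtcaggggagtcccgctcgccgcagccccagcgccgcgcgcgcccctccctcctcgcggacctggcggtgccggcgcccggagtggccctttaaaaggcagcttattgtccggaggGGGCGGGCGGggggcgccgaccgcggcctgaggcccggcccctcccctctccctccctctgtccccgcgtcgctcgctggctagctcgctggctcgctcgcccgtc
The SH3GL1 window held 1 GC box, at its downstream end, and 1 E-box, while the BIN1 window held 4 GC boxes, of which 2 overlap, and no E-box. GGGCGG was found in 45% of 35116 promoter windows of the same length and CACGTG in 7.26%. Neither window held the AP-1 type motif TGANTCA (7.71% of all windows), the TEAD type motif GGAATG (14% of windows) or CCAAT (34.6% of windows), on either strand. The G and C content was 72.3% for SH3GL1 and 75.3% for BIN1, against a median of 58.7% over all windows, and the windows held 44 and 38 CG pairs against a median of 14. SH3KBP1, by contrast, has 4 windows, which held between 1 and 6 CG pairs and no GC box, and the files do not say from which start its probes' transcripts came. All 10 genes matched the table, with 15 windows in all, and a match of letters is a description only.

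Of the 17 probes, 11 probes of 8 genes were tested. AMPH, which encodes amphiphysin, and DNM1, which encodes dynamin 1, both abundant in brain, were detected on 0 of 12 arrays with each of their probes (AMPH probes 360402 and 4040152, DNM1 probe 2320546), at levels of 4.13 to 4.48. The neuron genes SNAP25, SYP and SYN1 were not detected with 4 of their 6 probes. However, 1 SYN1 probe was detected on 12 of 12 arrays, and SNAP25 probe 3440253 on 3 MIA PaCa-2 arrays. Probe 4920328 of SH3KBP1 and probes 5900114 and 2760364 of SYNJ1 were detected on 0 of 12 arrays, although another probe of each gene was detected on all. The SYNJ2 probe 4200593 was detected on 7 arrays, 6 of Capan-1 and 1 of MIA PaCa-2. The remaining 10 probes were detected on 12 of 12 arrays.

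SH3GL1 encodes endophilin-A2, the endophilin found in most tissues. In MIA PaCa-2 its probe 4280639 stood at 7.21 and 7.32 with shCtrl, 8.19 and 8.35 with sh1209, and 8.37 and 8.43 with sh1319. In Capan-1 the levels were 7.21 and 6.86 with shCtrl, 7.12 and 7.30 with sh1209, and 7.23 and 7.23 with sh1319. The 4 MIA PaCa-2 arrays with a FAK hairpin were thus the highest of the 12, and the other 8 overlapped within 6.86 to 7.32. The deposited intensities in MIA PaCa-2 kept the order of the group means, with 204.6 on both shCtrl arrays, 307.4 and 403.9 with sh1209, and 369.3 and 480.6 with sh1319. The level was 2.01-fold that of shCtrl with sh1209 (log2 difference 1.01, SE 0.14) and 2.20-fold with sh1319 (log2 difference 1.14, SE 0.14). In Capan-1 the differences were 0.18 and 0.20, each with an SE of 0.14, and their size followed the shCtrl arrays, since they were 0.35 and 0.37 without shCtrl replicate 1 and 0.00 and 0.02 without shCtrl replicate 2. The mean difference in MIA PaCa-2 exceeded that in Capan-1 by 0.88.

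**Figure D1:**
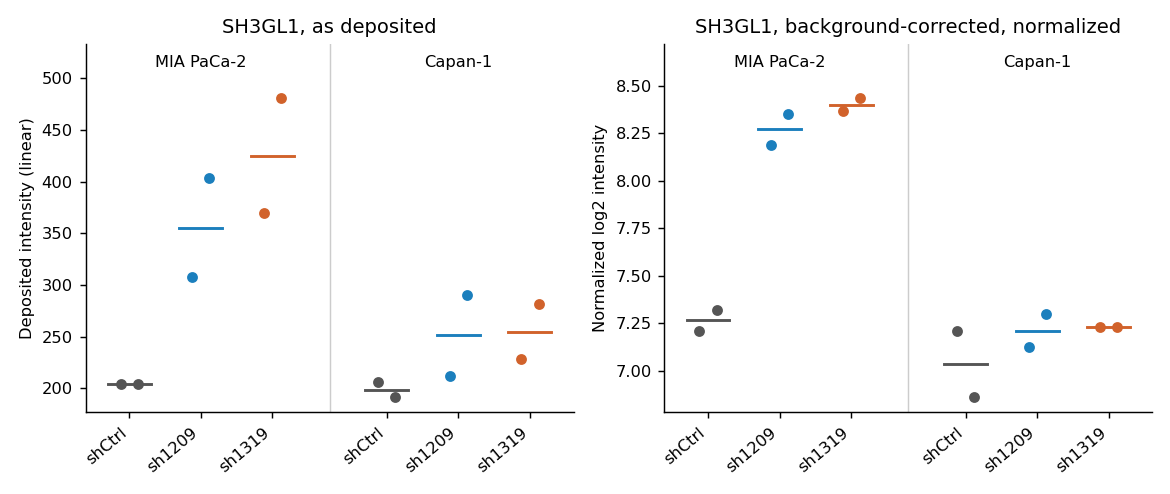
SH3GL1 probe 4280639 on each of the 12 arrays, as the deposited linear intensity (left) and as the normalized log2 intensity (right). Points are arrays, 2 for each group on the horizontal axis, and bars are group means. The 4 MIA PaCa-2 arrays with sh1209 or sh1319 lie between 8.19 and 8.43 on the right, and the other 8 between 6.86 and 7.32.

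The comparisons that were not themselves used to choose SH3GL1 were tested, but they share arrays with those that were. A choice for a rise with both hairpins in MIA PaCa-2 also favours likeness between the hairpins there. Ranked by mean level, the groups ran from MIA PaCa-2 with sh1319 (8.40) and sh1209 (8.27) to MIA PaCa-2 with shCtrl (7.26), Capan-1 with sh1319 (7.23), with sh1209 (7.21) and with shCtrl (7.03). The FAK hairpins differed by -0.13 in MIA PaCa-2, sh1209 minus sh1319 (95% interval -0.43 to 0.17, limma, adjusted p = 0.58), and by -0.02 in Capan-1 (-0.32 to 0.28, limma, adjusted p = 0.97). With shCtrl, the level in MIA PaCa-2 was 0.23 above that in Capan-1 (-0.07 to 0.53, limma, adjusted p = 0.21). None of these pairs passed the threshold, although in MIA PaCa-2 both sh1209 arrays lay below both sh1319 arrays. The shCtrl arrays of MIA PaCa-2 (7.21 and 7.32) overlapped with those of the next group, Capan-1 with sh1319 (7.23 on both). PTK2 probe 450253 in Capan-1 stood 1.16 above its sh1319 level when sh1209 was used (limma, adjusted p = 6.2e-05). The size of the SH3GL1 difference depended on the processing. Without background correction it was 0.75 (sh1209) and 0.86 (sh1319) in MIA PaCa-2. With median scaling it was 1.37 for sh1319 in MIA PaCa-2, while Capan-1 gave 0.43 (sh1209) and 0.45 (sh1319). RefSeq lists 3 pseudogenes of SH3GL1, of which 2 are transcribed, and whether the probe also reads them was not tested.

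Among the 10 probes of the partners, 3 were called with sh1209 in MIA PaCa-2, all lower, while 18.0% of all tested probes were called. With sh1319 in MIA PaCa-2 there were 5, of which 2 were higher and 3 lower, against 24.3% of all probes. In Capan-1, 4 probes were called with sh1209, 3 higher and 1 lower, against 16.8%, and 3 with sh1319, 1 higher and 2 lower, against 13.7%. The median change over the 10 probes was 0.07, 0.00, 0.23 and 0.15 in these 4 comparisons, while that of all tested probes was 0.01, -0.01, -0.01 and 0.00. Comparisons within a line share their shCtrl arrays. With the methods' t-test, 3, 5, 3 and 4 of the 10 passed an unadjusted p of 0.05 in the same order, and after the Benjamini-Hochberg adjustment no call remained. The 5 genes of the partners with a call in limma were SH3GLB1, SH3GLB2, SH3KBP1, BIN1 and SYNJ1.

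**Figure D2:**
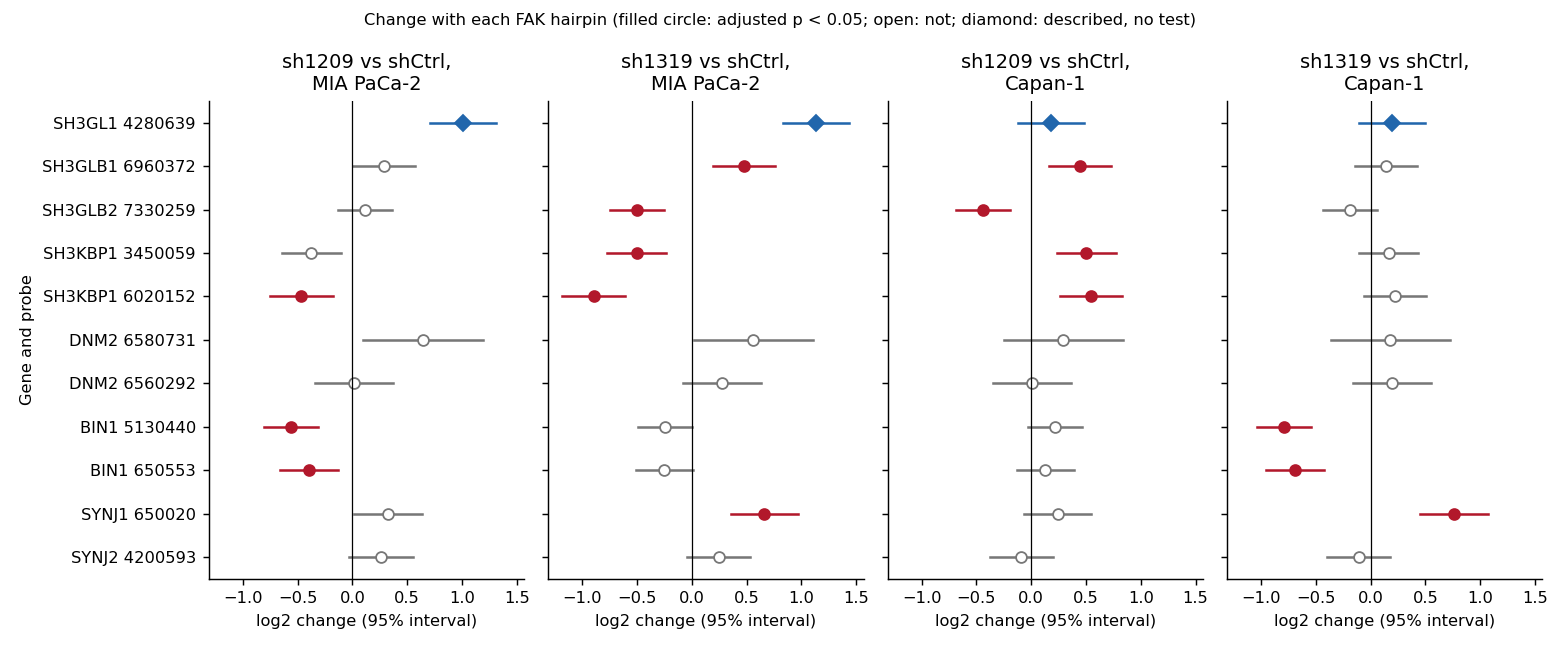
Log2 difference from shCtrl (horizontal axis) of the 11 tested probes (vertical axis) with each FAK hairpin in each cell line, with 95% intervals from the fit. Filled circles passed the adjusted p of 0.05, open circles did not, and diamonds are SH3GL1, which was not tested. Both SH3KBP1 probes lie left of 0 in MIA PaCa-2 and right of 0 in Capan-1, and both BIN1 probes lie farthest left with sh1319 in Capan-1.

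The endophilin B genes SH3GLB1 and SH3GLB2 encode BAR and SH3 domain proteins that act mainly at intracellular membranes, and SH3GLB1 is also known as BIF-1, a partner of BAX and of the autophagy machinery. In MIA PaCa-2, SH3GLB1 probe 6960372 read 9.33 and 9.15 with shCtrl, 9.50 and 9.57 with sh1209, and 9.59 and 9.85 with sh1319. In Capan-1 it read 9.80 and 9.73, then 10.30 and 10.12, then 9.86 and 9.96. Every array with a FAK hairpin lay above both shCtrl arrays of its line. SH3GLB1 rose with sh1319 in MIA PaCa-2 by 0.48 (SE 0.13, limma, adjusted p = 0.019). In Capan-1 it rose with sh1209, by 0.44 (limma, adjusted p = 0.036). The other pairs gave 0.29 with sh1209 in MIA PaCa-2 (limma, adjusted p = 0.16) and 0.14 with sh1319 in Capan-1 (limma, adjusted p = 0.57). The call in MIA PaCa-2 was lost without shCtrl replicate 2 (0.39) or sh1319 replicate 2 (0.35), and that in Capan-1 without any 1 of its 4 arrays, at 0.48 and 0.41 without shCtrl replicates 1 and 2 and 0.36 and 0.53 without sh1209 replicates 1 and 2. Median scaling gave 0.59 in Capan-1, which did not pass (limma, adjusted p = 0.083).

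SH3GLB2 fell with 1 hairpin in each line. Its probe 7330259 read 8.45 and 8.34 with shCtrl, 8.47 and 8.55 with sh1209, and 7.96 and 7.83 with sh1319 in MIA PaCa-2. In Capan-1 it read 9.12 and 9.11, 8.62 and 8.74, and 8.97 and 8.88, in the same order. The low arrays were those with sh1319 in MIA PaCa-2 and those with sh1209 in Capan-1, which overlapped with no other group of their line. It fell by 0.50 with sh1319 in MIA PaCa-2 (SE 0.11, limma, adjusted p = 0.007) and by 0.44 in Capan-1 with sh1209 (limma, adjusted p = 0.021), and gave 0.12 and -0.19 in the other pairs. In MIA PaCa-2 the hairpins themselves differed, with sh1209 above sh1319 by 0.62 (limma, adjusted p = 0.002), and in Capan-1 the difference was -0.25 (limma, adjusted p = 0.22). The fall with sh1319 was lost without shCtrl replicate 1 (-0.44) or sh1319 replicate 2 (-0.43). The fall in Capan-1 was lost without any 1 of its 4 arrays, at -0.43 and -0.45 without shCtrl replicates 1 and 2 and -0.38 and -0.50 without sh1209 replicates 1 and 2. With median scaling the SH3GLB2 falls were -0.38 and -0.26 and the hairpin difference 0.53, and none of them passed the test, the largest of these p-values being 0.55.

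SH3KBP1 encodes CIN85, an adaptor that links the ubiquitin ligase CBL to endophilins when growth factor receptors are taken up. Its probe 3450059 read 9.28 and 9.21 with shCtrl, 8.94 and 8.79 with sh1209, and 8.82 and 8.66 with sh1319 in MIA PaCa-2. The same groups of Capan-1 gave 8.13 and 8.23, 8.79 and 8.57, and 8.36 and 8.33. Probe 6020152 read 8.71 and 8.85, 8.30 and 8.34, and 7.94 and 7.83 in MIA PaCa-2, and 7.69 and 7.54, 8.30 and 8.04, and 7.77 and 7.92 in Capan-1. With both probes all 4 FAK-hairpin arrays lay below shCtrl in MIA PaCa-2 and above it in Capan-1. In MIA PaCa-2 probe 6020152 fell by 0.46 with sh1209 (SE 0.13, limma, adjusted p = 0.028). With sh1319 it fell by 0.90 (limma, adjusted p = 0.00035), while probe 3450059 gave -0.38 (limma, adjusted p = 0.055) and fell by 0.50 with sh1319 (limma, adjusted p = 0.011). In Capan-1 the probes rose with sh1209, by 0.50 for 3450059 (limma, adjusted p = 0.016) and 0.55 for 6020152 (limma, adjusted p = 0.013), and gave 0.17 and 0.23 with sh1319, short of the threshold.

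The difference between the lines was tested directly, as the mean change with the FAK hairpins in MIA PaCa-2 minus that in Capan-1. Both SH3KBP1 probes passed, at -0.77 for 3450059 (95% interval -1.10 to -0.44, limma, adjusted p = 0.0055) and -1.07 for 6020152 (-1.42 to -0.72, limma, adjusted p = 0.001). They were the 2 of 10 partner probes called in this comparison, where 14.4% of all tested probes were called, and the calls held in each alternative in which the comparison was run. Single calls within a line were less steady. That of 6020152 with sh1209 in MIA PaCa-2 was lost without sh1209 replicate 1 (-0.44), sh1209 replicate 2 (-0.49) or shCtrl replicate 2 (-0.39), and that of 3450059 with sh1319 without shCtrl replicate 1 (-0.47) or sh1319 replicate 2 (-0.42). In Capan-1 that of 3450059 was lost without shCtrl replicate 1 (0.45), shCtrl replicate 2 (0.55) or sh1209 replicate 1 (0.39), and that of 6020152 without shCtrl replicate 2 (0.47) or sh1209 replicate 1 (0.42). The fall of 6020152 with sh1319 in MIA PaCa-2 passed without each array in turn and lay between -0.97 and -0.82. Median scaling ended the calls of 6020152 with sh1209 (-0.46) and of 3450059 with sh1319 (-0.34) in MIA PaCa-2.

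DNM2 encodes dynamin 2, the dynamin of most tissues. Its probe 6580731 read 5.26 and 5.04 with shCtrl, 5.98 and 5.61 with sh1209, and 5.87 and 5.55 with sh1319 in MIA PaCa-2, whereas Capan-1 gave 6.17 and 5.67, 5.97 and 6.45, and 5.78 and 6.42. The FAK-hairpin arrays of MIA PaCa-2 lay above both shCtrl arrays, while those of Capan-1 overlapped with shCtrl. The MIA PaCa-2 differences of 0.64 for sh1209 and 0.56 for sh1319 did not pass (limma, adjusted p = 0.10 and 0.14), with an SE of 0.25 that was the widest among the tested probes of these genes. The dimmer probe 6560292 lay between 4.96 and 5.53 on all arrays, and its differences with the FAK hairpins were 0.01, 0.28, 0.00 and 0.19, all short of the threshold.

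BIN1 encodes amphiphysin 2, which bends membrane and also binds MYC. Its probe 5130440 read 8.14 and 8.23 with shCtrl, 7.55 and 7.70 with sh1209, and 7.88 and 8.00 with sh1319 in MIA PaCa-2, whereas Capan-1 gave 8.09 and 8.02, 8.24 and 8.30, and 7.24 and 7.29. Probe 650553 read 7.96 and 8.13, 7.60 and 7.69, and 7.81 and 7.77 in MIA PaCa-2, and 7.78 and 7.90, 7.87 and 8.07, and 7.13 and 7.18 in Capan-1. The arrays with sh1319 in Capan-1 were the lowest of all 12 with both probes. There BIN1 fell by 0.79 with probe 5130440 (SE 0.11, limma, adjusted p = 0.00092) and by 0.69 with probe 650553 (SE 0.12, limma, adjusted p = 0.0029), while sh1209 gave 0.22 (limma, adjusted p = 0.24) and 0.13 (limma, adjusted p = 0.57). Set against each other in Capan-1, sh1209 stood above sh1319 by 1.01 (limma, adjusted p = 0.00017) and 0.82 (limma, adjusted p = 0.0011), and these differences passed without each array in turn and with median scaling. With median scaling the falls against shCtrl were -0.51 and -0.41 and did not pass (limma, adjusted p = 0.15 and 0.28).

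In MIA PaCa-2 the lowest BIN1 levels were those with sh1209. BIN1 fell with sh1209 by 0.56 with probe 5130440 (limma, adjusted p = 0.0048) and by 0.40 with probe 650553 (limma, adjusted p = 0.039), and sh1319 gave -0.24 (limma, adjusted p = 0.15) and -0.25 (limma, adjusted p = 0.17). The hairpins differed there by -0.32 (limma, adjusted p = 0.065) and -0.15 (limma, adjusted p = 0.45). The call of probe 650553 was close to the threshold. It was lost without 10 of the 12 arrays in turn, at -0.48 and -0.31 without MIA PaCa-2 shCtrl replicates 1 and 2, at -0.35 and -0.44 without sh1209 replicates 1 and 2, and at the same -0.40 without any sh1319 array or any Capan-1 shCtrl array, with adjusted p-values between 0.05 and 0.20 in limma. Median scaling ended both calls, at -0.57 and -0.39.

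SYNJ1 and SYNJ2 encode the synaptojanins, which remove phosphates from phosphatidylinositol 4,5-bisphosphate on coated vesicles. SYNJ1 probe 650020 read 6.20 and 5.81 with shCtrl, 6.36 and 6.29 with sh1209, and 6.71 and 6.63 with sh1319 in MIA PaCa-2, whereas Capan-1 gave 5.36 and 5.33, 5.50 and 5.67, and 6.03 and 6.18. In both lines the sh1319 arrays were highest and the shCtrl arrays lowest, with no overlap between the groups. SYNJ1 rose with sh1319 by 0.66 in MIA PaCa-2 (SE 0.14, limma, adjusted p = 0.0046) and by 0.76 in Capan-1 (limma, adjusted p = 0.0042). These calls passed without each array in turn and with median scaling. In the methods' t-test the MIA PaCa-2 rise did not pass even without adjustment (t-test, unadjusted p = 0.08). With sh1209 the differences were 0.32 in MIA PaCa-2 (limma, adjusted p = 0.15), which passed at 0.52 without shCtrl replicate 1, and 0.24 in Capan-1 (limma, adjusted p = 0.31). The cell line difference in response was -0.01 (95% interval -0.38 to 0.37, limma, adjusted p = 0.99). Between the hairpins in Capan-1, sh1209 lay 0.52 below sh1319 (limma, adjusted p = 0.035), a call that was lost without any 1 of the 6 Capan-1 arrays. It was -0.44 and -0.60 without sh1209 replicates 1 and 2, -0.59 and -0.45 without sh1319 replicates 1 and 2, the same -0.52 without either shCtrl array, and -0.55 with median scaling, where it did not pass either. SYNJ2 probe 4200593 lay between 4.40 and 4.79 in MIA PaCa-2 and between 4.91 and 5.25 in Capan-1, and its differences with the FAK hairpins, from -0.11 to 0.26, did not pass.

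**Figure D3:**
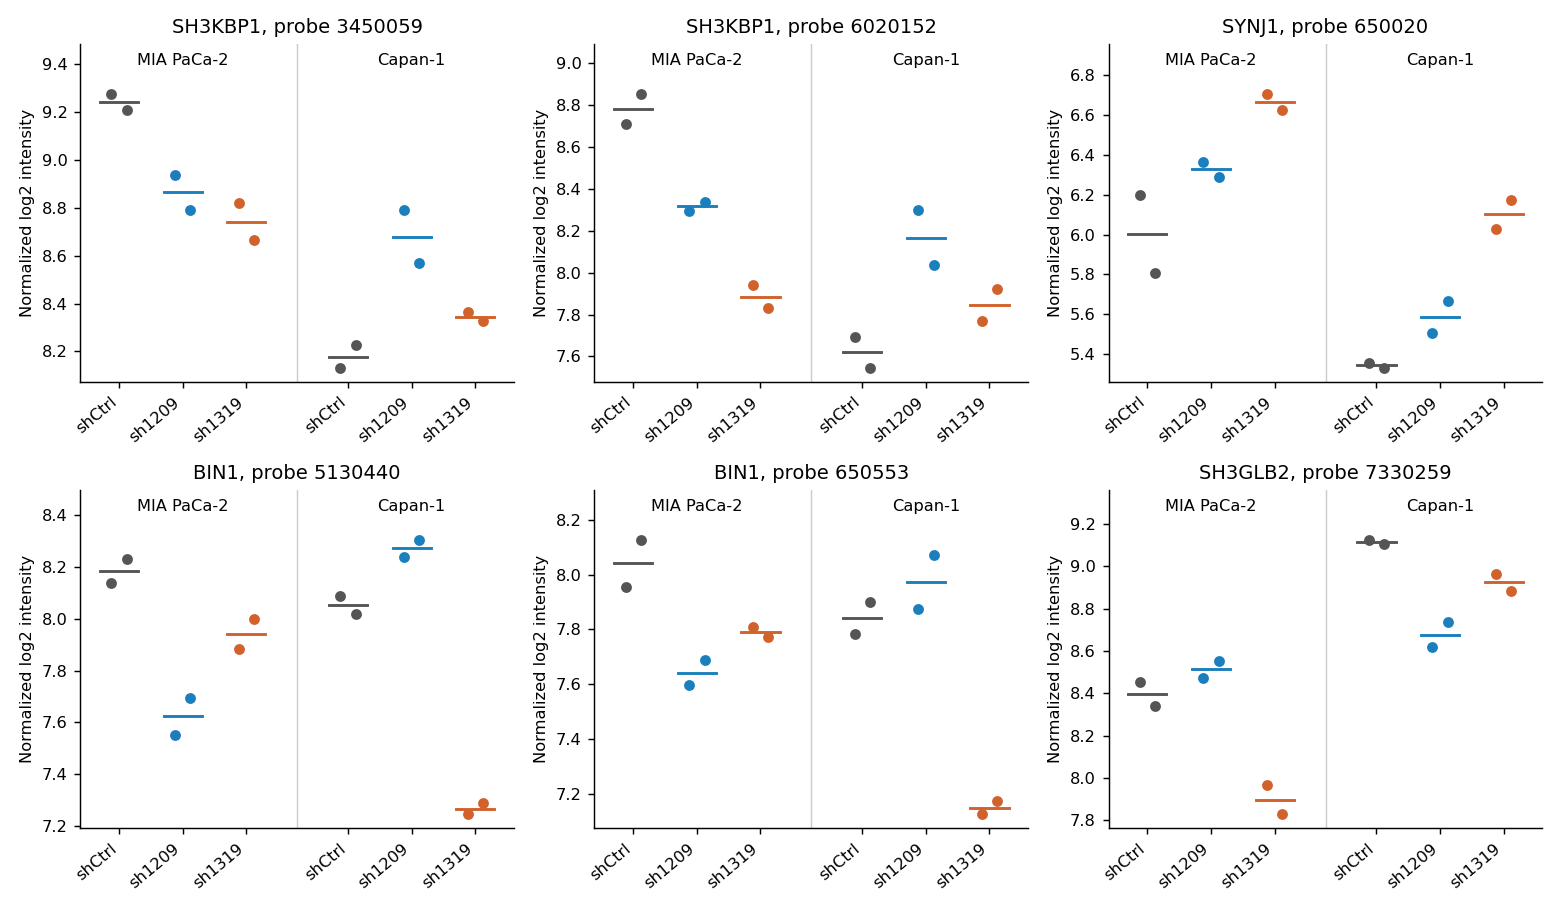
Normalized log2 intensity (vertical axes, each with its own range) of SH3KBP1, SYNJ1, BIN1 and SH3GLB2 on each array. Points are the 2 arrays of a group, and bars are group means. SH3KBP1 is lower with the FAK hairpins in MIA PaCa-2 and higher in Capan-1, SYNJ1 is highest with sh1319 in both lines, and BIN1 is lowest with sh1319 in Capan-1.

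Between the FAK hairpins, 2 of the 11 probes differed in MIA PaCa-2, both higher with sh1209, where 22.6% of all tested probes differed, and 3 of 11 in Capan-1, 2 higher with sh1209 and 1 lower, where 11.3% did. Those in Capan-1 were the BIN1 probes and SYNJ1. Those in MIA PaCa-2 were SH3GLB2 and SH3KBP1 probe 6020152, at 0.43 for the latter (limma, adjusted p = 0.032). That SH3KBP1 call was lost without any 1 of the 4 arrays compared, at 0.45 and 0.41 without sh1209 replicates 1 and 2 and 0.48 and 0.38 without sh1319 replicates 1 and 2, and with median scaling (0.33). PTK2 probe 450253 differed between the hairpins in Capan-1, as given above, while the dim probe 2680750 gave -0.00054 there. In MIA PaCa-2, sh1209 minus sh1319 was 0.24 for 450253 (limma, adjusted p = 0.17) and 0.59 for 2680750 (limma, adjusted p = 0.021). The part of PTK2 in the differences between the hairpins, such as those of BIN1 and SYNJ1, was not tested.

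With shCtrl alone, 7 of the 11 probes differed between the cell lines, 3 higher and 4 lower in MIA PaCa-2, where 42.1% of all tested probes differed. MIA PaCa-2 had more SH3KBP1, by 1.06 with probe 3450059 (limma, adjusted p = 2.1e-05) and 1.16 with probe 6020152 (limma, adjusted p = 1.5e-05), and SYNJ1 by 0.66 (limma, adjusted p = 0.0023). The endophilin B genes were lower there, SH3GLB1 by 0.52 (limma, adjusted p = 0.006) and SH3GLB2 by 0.72 (limma, adjusted p = 0.00026). SYNJ2 was not detected on either MIA PaCa-2 shCtrl array. It was at least 1.33-fold higher in Capan-1, as the Capan-1 mean against the lowest detected signal of the MIA PaCa-2 arrays. Its probe passed the detection filter only through the Capan-1 arrays, where it is high. Its call, counted among the 7, is therefore a description only. DNM2 probe 6580731 was 0.77 lower in the MIA PaCa-2 controls (-0.77, limma, adjusted p = 0.026), while probe 6560292 of the same gene gave -0.11 (limma, adjusted p = 0.62). The DNM2 call was lost without MIA PaCa-2 shCtrl replicate 2 (-0.66) or Capan-1 shCtrl replicate 1 (-0.52), and that of SH3GLB1 without MIA PaCa-2 shCtrl replicate 2 (-0.44). The BIN1 probes differed by 0.13 and 0.20, within the spread (limma, adjusted p = 0.40 and 0.22). Median scaling ended the calls of SH3GLB1 (-0.50) and SYNJ1 (0.41) here. With sh1209 the mean of SH3KBP1 probe 3450059 was 8.86 in MIA PaCa-2 against 8.68 in Capan-1, and that of probe 6020152 was 8.32 and 8.17, so that the lines lay closer than with shCtrl.

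The wider machinery was read from a list of 69 genes, drawn up with earlier results of these arrays known. Of these, 61 were tested, each by its brightest tested probe. They include AP2A1 and SH3GL2, which passed the detection filter only through arrays with a FAK hairpin, where they are high. Any call of these genes in the counts below is a description only. Shares over all tested probes count every tested probe of a gene, dim ones included, so they are not like for like with these. With sh1209 in MIA PaCa-2, 8 of the 61 rose and 5 fell, or 21.3%, near the 18.0% of all tested probes. With sh1319 there, 11 rose and 13 fell, or 39.3% against 24.3%. In Capan-1, 9 rose and 1 fell with sh1209 (16.4% against 16.8%), and 10 rose and 4 fell with sh1319 (23.0% against 13.7%). The median change over the list was 0.05, 0.01, 0.09 and 0.11, beside 0.01, -0.01, -0.01 and 0.00 over all tested probes. The coat and adaptor genes, 25 tested, held 5 that rose and 3 that fell with sh1209 in MIA PaCa-2, 5 and 4 with sh1319, and 2 of each with sh1319 in Capan-1, and 5 that rose with sh1209 in Capan-1. These were 32%, 36%, 16% and 20% of the 25, against 18.0%, 24.3%, 13.7% and 16.8% of all tested probes. Of the 11 BAR domain and SH3 proteins, 2 fell with sh1209 in MIA PaCa-2, and 2 rose and 3 fell with sh1319. In Capan-1, 2 rose with sh1209 and 1 with sh1319. In that order these were 18.2%, 45.5%, 18.2% and 9.09% of the 11, against 18.0%, 24.3%, 16.8% and 13.7% of all tested probes. Of the 10 receptor sorting genes, 1 rose with sh1209 in MIA PaCa-2 (10% against 18.0% of all tested probes). With sh1209 in Capan-1, 0 passed in limma (0% against 16.8%), where 2 had an unadjusted p under 0.05. Of the same genes, 2 rose and 3 fell in MIA PaCa-2 with sh1319 (50% against 24.3% of all tested probes), and 4 rose and 1 fell in Capan-1 with sh1319 (50% against 13.7%).

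**Figure D4:**
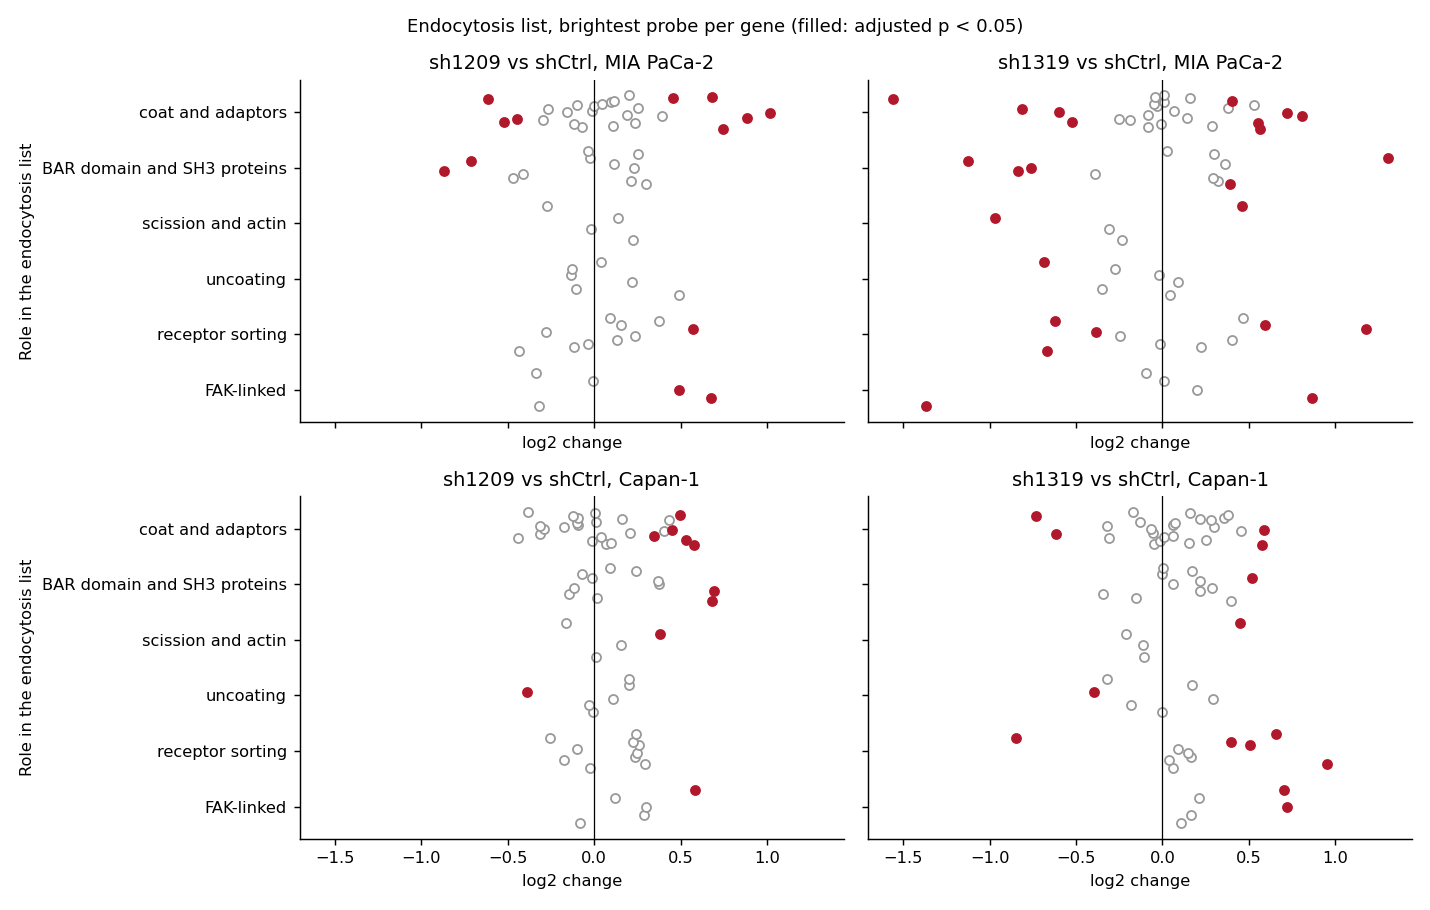
Log2 difference from shCtrl (horizontal axis) of the 61 tested genes of the endocytosis list, each as 1 point in the row of its role, with each FAK hairpin in each line. Filled points passed the adjusted p of 0.05. The panel of sh1319 in MIA PaCa-2 holds the most filled points, 11 to the right of 0 and 13 to the left.

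In MIA PaCa-2 the genes that rose with both hairpins were EPN1, which encodes the membrane-bending adaptor epsin 1 (1.02 with sh1209 and 0.72 with sh1319), RAB5B, a GTPase of early endosomes (0.57 and 1.18), BCAR1, the FAK and SRC substrate p130Cas (0.67 and 0.87), and AP2A1, a subunit of the clathrin adaptor AP2 (0.75 and 0.57). Those that fell with both were NECAP1, which binds AP2 (-0.61 and -1.56), PACSIN3, a syndapin that binds dynamin (-0.71 and -1.12), FNBP1L, which links curved membrane to actin assembly (-0.87 and -0.84), and ARRB1, beta-arrestin 1 (-0.52 and -0.52). EPN1, RAB5B, PACSIN3 and FNBP1L passed without each array in turn with both hairpins. With sh1209, BCAR1 was lost without any 1 of the 4 arrays compared (0.62 to 0.72), AP2A1 without shCtrl replicate 1 (0.56) or sh1209 replicate 1 (0.67), NECAP1 without shCtrl replicate 2 (-0.51) or sh1209 replicate 2 (-0.46), and ARRB1 without shCtrl replicate 2 (-0.35), either sh1209 array (-0.47 and -0.57) or either Capan-1 sh1209 array (-0.52). With sh1319, BCAR1 was lost without sh1319 replicate 2 (0.66), AP2A1 without shCtrl replicate 1 (0.38) or either sh1319 array (0.48 and 0.65), and ARRB1 without shCtrl replicate 2 (-0.36) or either sh1319 array (-0.56 and -0.48). AP2A1 was detected on 1 of the 2 shCtrl arrays of MIA PaCa-2. Median scaling ended the calls of AP2A1 (0.61 and 0.50) and ARRB1 (-0.43 and -0.40) with both hairpins, and those of BCAR1 (0.68) and NECAP1 (-0.64) with sh1209. Without background correction AP2A1 with sh1319 (0.18) and ARRB1 with both (-0.20 each) did not pass, and without a filter on dim probes BCAR1 and ARRB1 with sh1209 did not.

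In Capan-1 the genes that rose with both hairpins were SRC, the kinase that binds active FAK (0.58 with sh1209 and 0.70 with sh1319), EPN1 (0.45 and 0.59) and AP2A1, and the gene that fell with both was HSPA8, the chaperone that strips clathrin from vesicles (-0.39 and -0.40). AP2A1 was not detected on either Capan-1 shCtrl array and was at least 1.47-fold higher with each hairpin. EPN1 and AP2A1 were the 2 list genes called in all 4 comparisons, both higher. AP2A1 passed the detection filter only through the arrays with a FAK hairpin, where it is high. Its calls in both lines, which are counted among the list genes above, are therefore a description only. Apart from EPN1 with sh1319, none of the Capan-1 calls named here passed without each array in turn. With sh1209, EPN1 was lost without shCtrl replicate 1 (0.42) or either sh1209 array (0.47 and 0.43), and SRC without either shCtrl array (0.54 and 0.62) or sh1209 replicate 2 (0.46). With sh1319, SRC was lost without either shCtrl array (0.66 and 0.74) or sh1319 replicate 2 (0.61). HSPA8 was lost without any 1 of the 4 arrays compared, between -0.43 and -0.34 with sh1209 and between -0.47 and -0.33 with sh1319. The call of AP2A1, for which shCtrl gives a bound and no size, was lost with sh1209 without either shCtrl array or sh1209 replicate 2, with sh1319 without any shCtrl or sh1319 array or any MIA PaCa-2 array with a FAK hairpin, and with both hairpins without background correction or without a filter. Median scaling ended the calls of EPN1 with sh1209 (0.58) and of HSPA8 with both hairpins (-0.36 and -0.27).

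Among all tested probes whose group means spanned at least 1, those most like SH3GL1 over the 12 arrays included probes of LOC400831, CARD17, MKKS and TBC1D2, each with a Pearson r of 0.98, and 165 of 8807 such probes had an r over 0.9. This likeness rests on the 4 high and 8 low arrays that SH3GL1 was chosen for and on shared arrays, so it is a description only. TBC1D2, which encodes a protein that acts on RAB7, had means of 6.28, 7.53 and 7.56 with shCtrl, sh1209 and sh1319 in MIA PaCa-2, and of 6.18, 6.30 and 6.61 in Capan-1.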

How the data were processed

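Expression was measured in MIA PaCa-2 and Capan-1 with shCtrl, sh1209 or sh1319, 2 arrays in each of 6 groups, and samples were grouped by their labels. The authors deposited a linear intensity and a detection p-value per probe and array, with no normalization or background subtraction, from GenomeStudio 2011.1 per the submitters' processing notes. The table has 47320 rows, of which 92 are control probes, and 28 empty columns. Background was corrected with limma's nec (normexp from the detection p-values, offset 16), control probes were then left out, and log2 values were quantile-normalized. Probes detected at p under 0.05 in at least 2 of 12 arrays were fitted with lmFit and eBayes on the 6 group means (limma 3.58.1, R 4.3.3), which share 1 estimate of the spread with 6 residual degrees of freedom. The number of arrays limits the precision. The script was tested on simulated data. A probe that no array of a group detected was set at the lowest detected signal of each array for a lower bound.

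The members and lists were chosen with earlier results of these data known. Every probe of the 10 members was named, with PTK2, the up to 4 largest rises and 4 largest falls of the list among genes called with both hairpins of a line, list genes called in all 4 pairs, and the 5 probes most correlated with SH3GL1, of which 1 is not reported here. SH3GL2, named in the closing section, was chosen after its values were seen. Alternatives were median scaling, leaving out the background correction or the filter, a filter at a detection p of 0.01, the replicate number as a block, array weights, the plain t-test named in the methods, without and with the Benjamini-Hochberg adjustment, and each array left out in turn. Replicate numbers did not pair the arrays, since the deviations of same-numbered arrays from their group means correlated at over 0.1 in 1 of 15 pairs of groups (-0.06 to 0.16). Promoter windows came from RefSeq (GRCh38.p14). Probe sequences were not used here, so probes shared with pseudogenes or other transcripts could not be named.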

Additional observations from a re-analysis of the deposited data

Results flagged for a closer look

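SH3KBP1 changed differently in MIA PaCa-2 and Capan-1 in a direct test, with both detected probes. The MIA PaCa-2 change minus the Capan-1 change was -0.77 for probe 3450059 (limma, adjusted p = 0.0055) and -1.07 for probe 6020152 (limma, adjusted p = 0.001), the change being negative with both hairpins in MIA PaCa-2 and positive with both in Capan-1. The probes belong to 1 gene and were read on the same arrays, so they are not independent samples of it. The lines also differed in their SH3KBP1 level with shCtrl and in the change of PTK2 probe 450253, where the same difference was -1.17 (limma, adjusted p = 0.00021). The dim PTK2 probe 2680750 gave 0.47 and did not pass (limma, adjusted p = 0.15). The part of these in the SH3KBP1 difference was not tested.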

How the results depend on the processing

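Each group had 2 arrays, dim probes near background such as those of DNM2 and SYNJ2 carry compressed changes, and no cause of a change between settings was tested. Of the 29 calls of member probes, 16 passed without each array in turn. Leaving out 1 array gave between 1 and 3 called partner probes and 7 to 13 list genes in MIA PaCa-2 with sh1209, 2 to 5 and 16 to 26 with sh1319, and in Capan-1 0 to 4 and 2 to 10 with sh1209 and 3 to 3 and 6 to 14 with sh1319. It gave 1 to 2 member probes and 13 to 18 list genes between the hairpins in MIA PaCa-2, 2 to 3 and 1 to 9 in Capan-1, 5 to 7 and 24 to 32 between the lines with shCtrl, and 2 to 2 and 7 to 12 for the cell line difference in response. The 0 for sh1209 in Capan-1 came in limma without sh1209 replicate 1 or shCtrl replicate 2, where 4 of the 10 probes had an unadjusted p under 0.05. The replicate number as a block changed none of the 88 member values and left 4 calls where sh1209 was compared with shCtrl in Capan-1.

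Median scaling shifted the median of all probes by 0.11 with sh1319 in Capan-1 and gave fewer calls. In MIA PaCa-2 it called 0 partner probes with sh1209 and 3 with sh1319, in Capan-1 2 and 1, and in the same order 6, 15, 5 and 9 list genes. Between the hairpins it gave 0 member probes and 10 list genes in MIA PaCa-2 and 1 list gene in Capan-1. At an unadjusted p under 0.05, limma counted 3 probes in each comparison with 0. Over all probes the calls for sh1319 in MIA PaCa-2 were 2562 higher and 1284 lower with median scaling, against 2964 and 2923. In Capan-1 they were 2009 and 450 for sh1209, against 1971 and 2103, and 1936 and 334 for sh1319, against 1682 and 1640. Between the hairpins in MIA PaCa-2 they were 1206 and 2271, against 2773 and 2705, and for the cell line difference 581 and 1253, against 1753 and 1722. Without background correction 5 partner probes were called for sh1209 in MIA PaCa-2, and 7 member probes and 16 list genes between the hairpins in Capan-1. The methods' t-test, adjusted, called 0 member probes and 0 list genes in each of the 6 hairpin comparisons, and 3 and 19 between the lines. It was not run for the cell line difference in response.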

Other observations

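SH3GL2, which encodes endophilin-A1, the relative of SH3GL1 that is abundant in brain, was detected with sh1319 in MIA PaCa-2 alone. Its probe 2600465 read 5.66 and 5.51 on those arrays and between 4.17 and 4.31 on the other 10, where it was not detected. It was at least 1.83-fold higher than with shCtrl and at least 1.89-fold higher than with sh1209 in MIA PaCa-2. These values are given as a description, with no p-value. The probe was singled out after its values were seen and passed the detection filter only through the group where it is high. SH3GL2 is also among the tested genes of the endocytosis list, so it entered the counts given for that list.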
